A study of Mus musculus with 6 samples.

Results

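Complex III, complex IV and ATP synthase are the final steps of oxidative phosphorylation in the inner membrane of mitochondria, and the genes described are those that the nucleus holds for them. Members were probesets annotated to 1 gene only, with a symbol that begins with Uqcr, Cox4 to Cox8 or Atp5 or that is Cyc1, and the brightest probeset by mean signal stood for each gene. This gave 43 genes of the 18193 genes with a probeset of their own, namely 9 of complex III, 17 of complex IV and 17 of ATP synthase. After the dimmest probesets were left out, 42 of the 43 members remained among 13851 genes, and the missing one was Cox7b2, a testis isoform of complex IV with a mean signal of 45.8.

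Complex III takes electrons from ubiquinol and hands them to cytochrome c, complex IV passes them on to oxygen, and both pump protons out of the matrix. ATP synthase lets the protons return through a ring of c subunits, whose rotation turns a central stalk inside the catalytic head and drives the formation of ATP. Neurons spend much of their ATP on restoring ion gradients after synaptic activity, and several complex IV subunits exist as isoforms that are typical of brain and liver, of heart and muscle, of lung or of testis.

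RNA came from the homogenized hippocampus of 3 Glud1 transgenic (Tg) and 3 wild-type (wt) mice, all of them male, 9 months old and of the C57BL/6 background, with 1 Affymetrix Mouse Genome 430 2.0 array per mouse. Tg mice carry an added Glud1 gene, which encodes glutamate dehydrogenase 1, driven by the promoter of neuron-specific enolase (Nse), so that the transgene acts in neurons while the RNA came from all cells of the tissue. The wt mice lack the transgene and neither group was treated. The comparison of Tg with wt mice asks how a lifelong, moderate excess of neuronal glutamate release goes with gene expression, here that of the last steps of respiration.

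Signals are linear MAS5 values, and a fold change is the difference of the group means of log2(signal + 16), Tg minus wt, with its standard error from limma. The Glud1 signal was 5115.6, 5595.7 and 5560.8 in Tg mice and 6383.3, 5647.3 and 5998.2 in wt mice, and since the 3′ end of the transgene's RNA is not given in the sources used here, this probeset does not check the labels. The 7 neuron markers Snap25, Syt1, Rbfox3, Neurod6, Prox1, Wfs1 and Bok were all kept, with summed signals of 74415.4 to 76570 in Tg and 73424.5 to 75835.8 in wt mice. Within that sum 5 fold changes were above 0, namely Snap25 (0.03), Rbfox3 (0.13), Neurod6 (0.25), Bok (0.25) and the granule cell marker Prox1 (0.72). Syt1 (-0.09) and the CA1 marker Wfs1 (-0.29) were below 0. The 3 astrocyte markers Gfap (-0.30), Aqp4 (-0.14) and Aldh1l1 (-0.17) were all below 0, with summed signals of 8783.7 to 9526.1 in Tg and 9840 to 11870.5 in wt mice, so that the sums did not overlap. Of the 3 microglia markers Csf1r (-0.18) was below 0 with the groups apart, while Cx3cr1 (0.19) and Aif1 (0.02) were above 0. The part of these cell types in the differences below was not tested. The 18S ribosomal RNA control stood apart on wt 1 (13960.1) and wt 2 (10375.2) from the other 4 arrays (975.5 to 3312.8). The 3′ to 5′ signal ratio of Actb, a sign of RNA integrity, was 1.64 to 1.69 in Tg and 1.7 to 1.95 in wt mice. For Gapdh the same ratio overlapped, at 0.781 to 0.8 in Tg and 0.752 to 0.908 in wt mice. The part of the 18S signal or of RNA integrity in the differences below was not tested. The choroid plexus, a tissue that borders the hippocampus, was unevenly present, with summed signals for its markers Ttr, Kl and Kcnj13 of 4449.6 to 62301.1 in Tg and 46705.4 to 52489.3 in wt mice. In whole tissue, fewer cells of a type and less RNA per cell cannot be told apart.

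Most members had a slightly lower mean signal in Tg than in wt mice, and no single member passed the test. The fold change was below 0 for 34 of the 42 kept members (81.0%), against 55.9% of all kept genes, and its median was -0.121, against -0.031 for all kept genes. With limma and Benjamini-Hochberg adjustment over 31076 probesets, 0 members were called at an adjusted p under 0.05, and the same share was 0.0% of all probesets. At an unadjusted p under 0.05, 7 members were lower in Tg mice (16.7%, against 4.97% of all kept genes) and 0 were higher (against 2.9%). The 7 were Atp5d, Atp5md and Atp5e of ATP synthase and Cox5a, Cox6b1, Cox7a2 and Cox6a2 of complex IV. Every Tg array lay below every wt array for 8 members (19.0%, against 8.82% of all kept genes), and every Tg array lay above every wt array for 0 members (against 5.21%). With Cyber-T, the Bayesian test of the study's methods, 0 members and 65 probesets were called after the same adjustment. The p values rest on the spread between these 6 mice, each measured once, with variances moderated by a trend over all kept probesets.

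**Figure D1:**
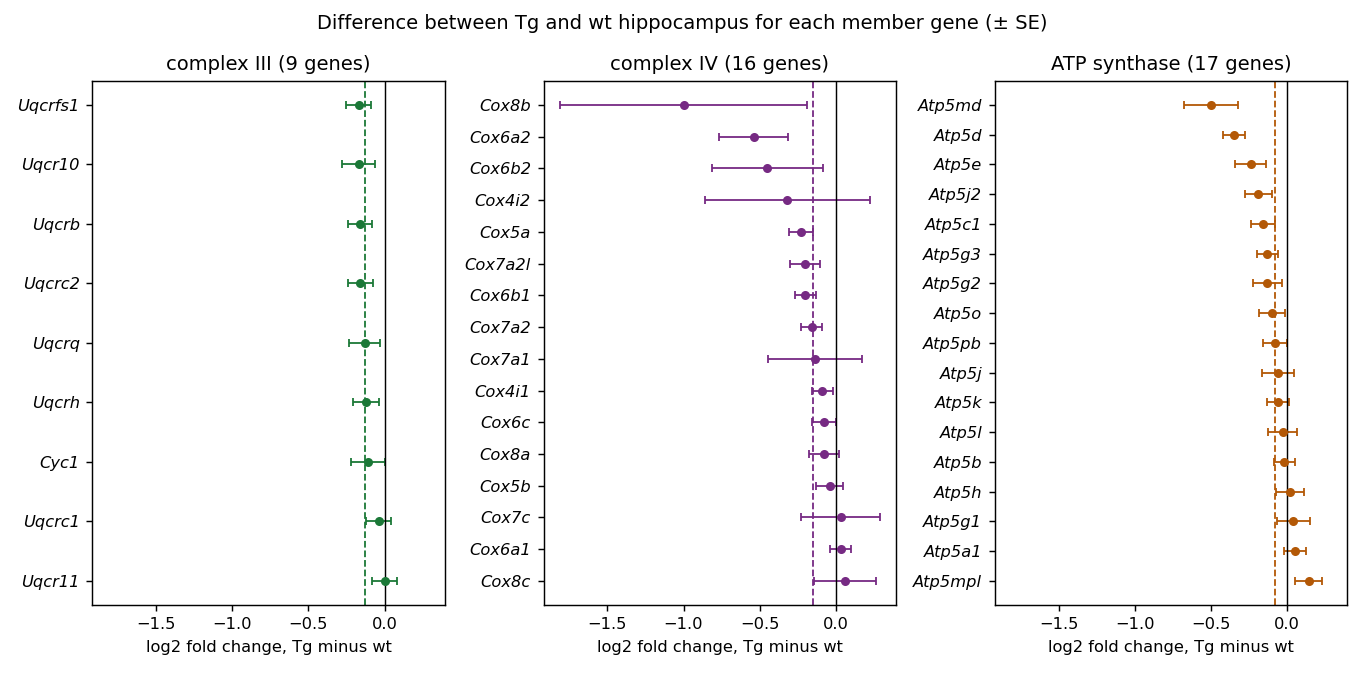
Each point is the log2 fold change of 1 kept member gene, Tg minus wt, with its standard error as the bar, in 1 panel for each complex. The solid line marks no difference and the dashed line the median of the complex, which was -0.126 for complex III, -0.153 for complex IV and -0.077 for ATP synthase.

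The count of 7 lower members depended on single arrays, on the scaling and on how the variances were moderated. The count was 2 (Atp5d and Cox6a2) when limma was fitted with no trend of the variance. It was 11 without Tg 2, 10 without wt 3, 4 without Tg 3 and 3 without wt 2, and it was 2 (Atp5d and Cox6a2) without both wt 1 and wt 2, a choice made after the 18S signals were seen. It was 4 after quantile normalization and 14 after centring every array at its own median, which moves the median probeset by 0.0663, since the median signal of the kept probesets averaged 315.1 in Tg and 300.2 in wt mice. The count of members below 0 was 30 of 42 (71.4%) after quantile normalization and 41 of 42 (97.6%) after centring, against 59.3% and 68.0% of all kept genes, and the medians over the members were then -0.067 and -0.187, against -0.049 and -0.097 for all kept genes. The median over the members was -0.07 without Tg 3 (all kept genes, -0.022) and -0.024 without wt 1 and wt 2 (all kept genes, -0.031).

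The members are among the brightest genes of the hippocampus, and 35 of the 42 fell in the brightest decile of kept genes, which begins at a mean signal of 3024.4. Bright genes as a whole also lay lower in Tg mice, with a median of -0.055 over the 1351 other genes of that decile, of which 67.1% were below 0. Among the 35 bright members the median was -0.111, and 29 (82.9%) were below 0. An unadjusted p under 0.05 with a lower Tg mean was found for 6 of these 35 members (17.1%) and for 159 of the other 1351 genes (11.8%). All Tg arrays lay below all wt arrays for 8 of the 35 (22.9%) and for 235 of the 1351 (17.4%). After quantile normalization the medians were -0.062 for the bright members and -0.009 for the other bright genes.

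**Figure D2:**
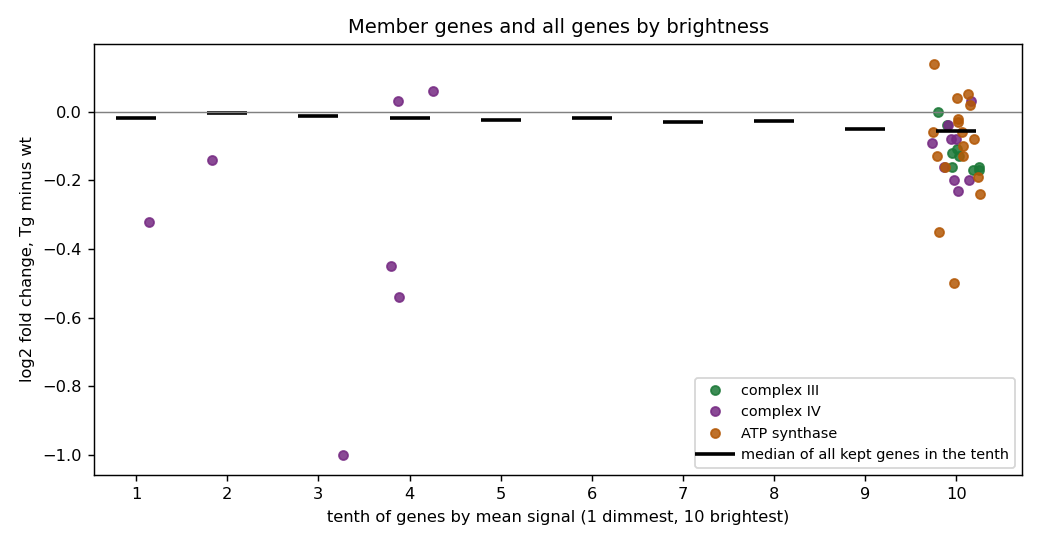
The log2 fold change of each kept member, Tg minus wt, is plotted against the decile of kept genes in which its mean signal falls, with points spread sideways at random within a decile and black bars for the median of all kept genes in that decile. The bar is at -0.017 in the dimmest decile and at -0.057 in the brightest, where 35 members lie.

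The 3 complexes had similar levels relative to their means on each array. The median deviation of the 42 members from each gene's mean over all arrays was -0.068, 0.004 and -0.159 in Tg 1, 2 and 3 and 0.094, 0.108 and -0.021 in wt 1, 2 and 3, on the log2 scale. The groups overlapped, since wt 3 lay below Tg 2, and Tg 3 was the lowest array for each of the 3 complexes. For complex III the deviations were -0.063, 0.049 and -0.131 in Tg mice and 0.128, 0.098 and -0.025 in wt mice. For complex IV they were -0.085, -0.008 and -0.168 in Tg mice and 0.107, 0.125 and -0.021 in wt mice. For ATP synthase they were -0.03, 0.004 and -0.153 in Tg mice and 0.045, 0.111 and -0.02 in wt mice. The 2 highest arrays, wt 1 and wt 2, are those with the most 18S signal, and the part of that in these levels was not tested.

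**Figure D3:**
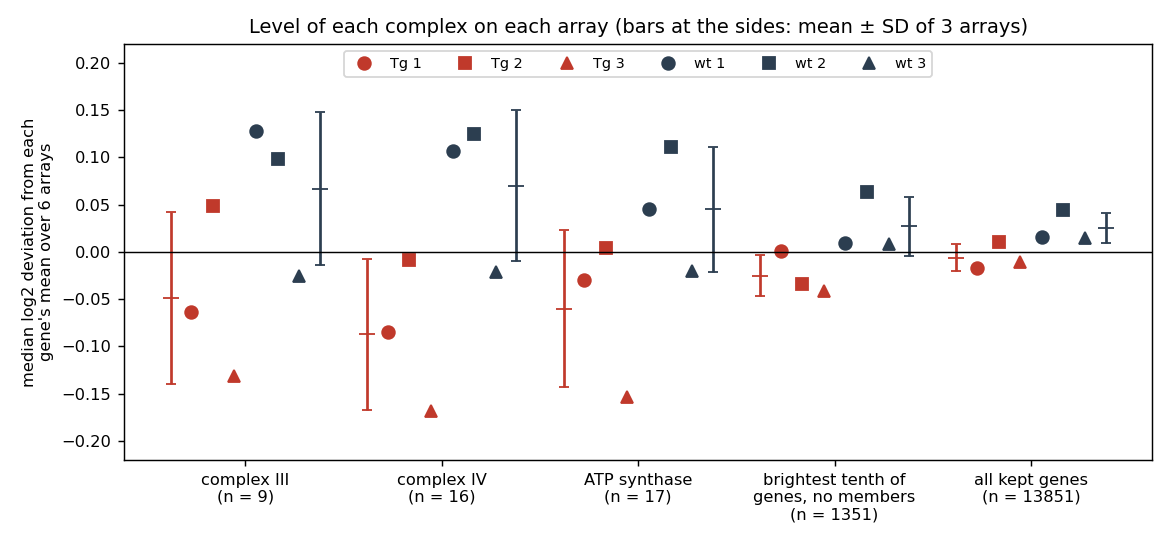
Each symbol is the median, over the genes of a list, of the log2 deviation of 1 array from the gene's mean over 6 arrays, for the 3 complexes, for the brightest decile of genes without the members and for all kept genes. Bars at the sides give the mean ± SD of 3 arrays. Tg 3 is the lowest and wt 1 or wt 2 the highest array for each complex, and wt 3 lies below Tg 2.

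In complex III, 8 of 9 subunit genes were below 0, by small amounts, with a median of -0.126 (-0.057 without Tg 3). None had an unadjusted p under 0.05, against 4.97% of all kept genes that were lower at that level. In 1 of the 9 (11.1%) every Tg array lay below every wt array. That share was 8.82% of all kept genes and 17.4% of the 1351 other genes of the brightest decile. The 1 gene was Uqcrfs1, which encodes the Rieske iron-sulfur protein, the subunit that carries electrons from ubiquinol towards cytochrome c1. Its signal was 3939.7, 3697.3 and 4150 in Tg mice and 4313, 4392.9 and 4502.8 in wt mice. Every Tg mouse lay below every wt mouse, with means of 3929 ± 227 and 4402.9 ± 95.3 (SD, n = 3 arrays) and a fold change of -0.17 ± 0.08 on the log2 scale (SE, limma adjusted p = 0.546). The gene lies at chr13:30540312-30545316 in GRCm38.p6.

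The core proteins Uqcrc1 and Uqcrc2 hold the complex together on the matrix side. Uqcrc2 read 4684.5, 5079.8 and 4695.8 in Tg mice and 5556, 5513.9 and 5041.7 in wt mice. The groups overlapped only through wt 3, which lay below Tg 2, and the fold change was -0.16 ± 0.08 (limma adjusted p = 0.570). At Uqcrc1 the fold change was -0.04. Uqcrb, a small subunit near the ubiquinone site and the brightest probeset of complex III, read 27329.8, 29731.4 and 28249.9 in Tg mice and 34492.4, 32113.9 and 28746.4 in wt mice. Its wt 3 array lay below Tg 2, and its fold change of -0.16 ± 0.08 (limma adjusted p = 0.551) was -0.096 without wt 1 and 0.09 at a further probeset of the gene.

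Cytochrome c1, encoded by Cyc1, passes the electron to cytochrome c. Its signal was 6762.5, 7419.3 and 6267 in Tg mice and 8729.4, 6303.5 and 7199.3 in wt mice, so the groups were mixed except for a high wt 1. The fold change of -0.11 ± 0.11 (limma adjusted p = 0.785) became 0.014 without wt 1. The hinge protein Uqcrh, which helps cytochrome c1 meet cytochrome c, read 8531.9, 9179.2 and 7595 in Tg mice and 9325.8, 9435.8 and 8603.5 in wt mice. There wt 3 lay below Tg 2, and the fold change of -0.12 ± 0.09 (limma adjusted p = 0.692) was -0.042 without Tg 3 and -0.01 at a further probeset. The small subunits Uqcr10, Uqcrq and Uqcr11 had fold changes of -0.17, -0.13 and 0.00.

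In complex IV, 13 of 16 kept genes were below 0, and the median was -0.153. At an unadjusted p under 0.05, 4 were lower (25.0%). That share was 4.97% of all kept genes and 11.8% of the 1351 other genes of the brightest decile. The order of the 3 complexes was not stable, since without Tg 2 the medians were -0.179 for complex III, -0.115 for complex IV and -0.121 for ATP synthase. Without wt 1 and wt 2 the median of complex IV was 0.003. The groups did not overlap for Cox5a, Cox6b1, Cox7a2 and Cox4i1, all with Tg lower. They are 25.0% of the 16, against 8.82% of all kept genes and 17.4% of the 1351 other genes of the brightest decile. The catalytic subunits of the complex, which mitochondrial DNA encodes, are not members.

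Cox5a encodes a subunit on the matrix side that binds next to Cox4. Its signal was 9792.1, 10140 and 9426.4 in Tg mice and 12390.7, 11490.1 and 10718.5 in wt mice. All Tg mice lay below all wt mice, with means of 9786.2 ± 357 and 11533.1 ± 837 (SD, n = 3 arrays) and a fold change of -0.23 ± 0.08 (limma adjusted p = 0.348). Further Cox5a probesets gave -0.03 and -0.13. The gene lies at chr9:57517328-57532427 in GRCm38.p6.

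Cox6b1, the subunit that ties 2 complexes into a dimer on the intermembrane side, read 19723.9, 20927.6 and 18742.2 in Tg mice and 22730.4, 23645.4 and 21936.7 in wt mice. The groups were apart, and the fold change was -0.20 ± 0.07 (limma adjusted p = 0.383), with -0.12 at a further probeset. Cox7a2, the isoform of subunit 7a found in most tissues, read 20890.7, 21900.1 and 19640.7 in Tg mice and 23350.5, 24192.4 and 22414.6 in wt mice. Here too the groups were apart, with a fold change of -0.16 ± 0.07 (limma adjusted p = 0.482) and -0.10 at a further probeset.

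**Figure D4:**
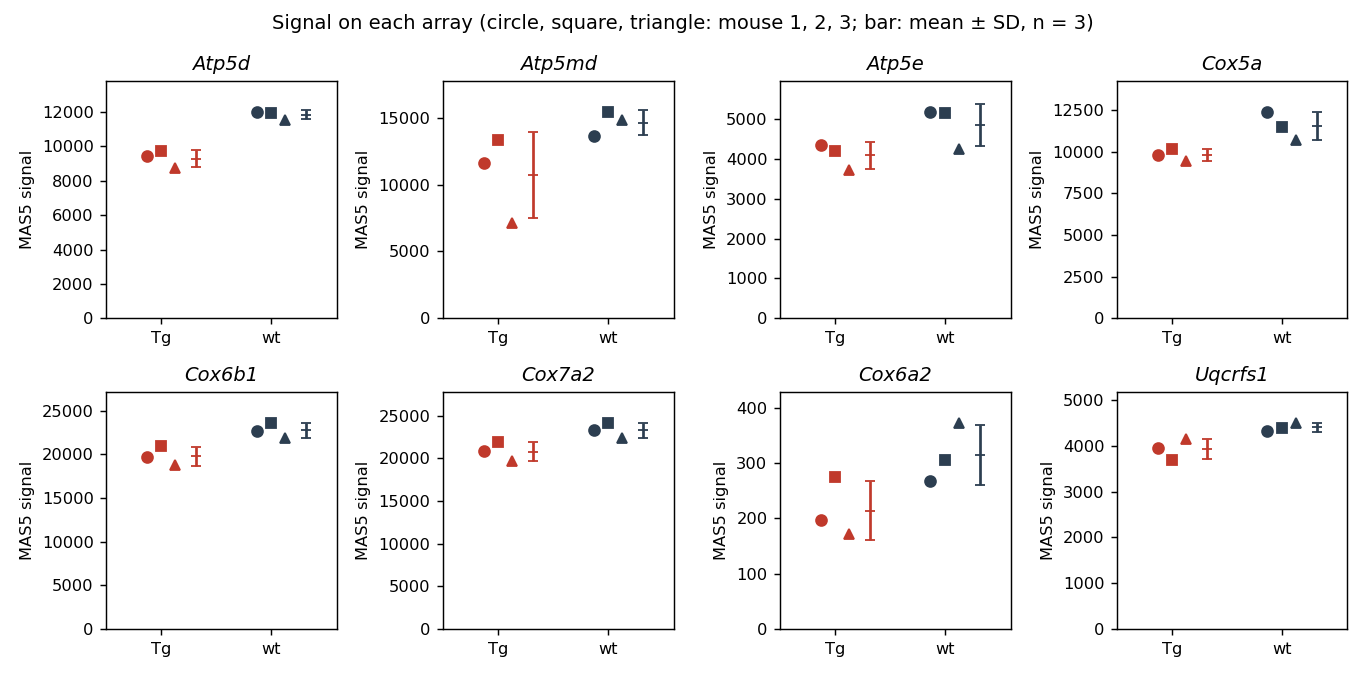
MAS5 signals of 8 members are plotted for each array, with circles, squares and triangles for mice 1, 2 and 3 of each group and bars for the mean ± SD of 3 arrays. The axes begin at 0, so the small size of most differences can be seen. The groups are apart for Atp5d, Atp5md, Cox5a, Cox6b1, Cox7a2 and Uqcrfs1 and overlap for Atp5e and Cox6a2.

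The brightest complex IV probesets did not all lie lower. Cox6a1, the isoform of subunit 6a outside muscle, read 28459.8, 26192.2 and 28462.3 in Tg mice and 27846.5, 28127.8 and 25280.1 in wt mice, mixed between the groups, with a fold change of 0.03 (limma adjusted p = 0.908). Cox5b, a zinc-binding subunit, read 21504.5, 22023 and 24549.4 in Tg mice and 24873.6, 24751.1 and 20451.7 in wt mice, and its fold change was -0.04 (limma adjusted p = 0.915) and 0.03 after quantile normalization. Its probeset has the ending _x_at, which marks probes that may also bind other transcripts, such as those of gene copies. Cox4i1, the common isoform of the regulatory subunit 4, read 22485.7, 21567.3 and 21877.9 in Tg mice and 22639.3, 24990.7 and 22551.6 in wt mice. Those groups were apart by a narrow margin, with a fold change of -0.09 ± 0.07 (limma adjusted p = 0.713) that was -0.04 without wt 2. Cox8a, the isoform of subunit 8 outside muscle, read 11541.7, 11129.5 and 9772.2 in Tg mice and 13193.4, 10810.3 and 10413.4 in wt mice, mixed apart from a high wt 1, and its fold change of -0.08 ± 0.10 (limma adjusted p = 0.827) was 0.024 without wt 1. Cox6c, a further small subunit, had a fold change of -0.08.

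Cox7a2l is a relative of subunit 7a that has been linked to supercomplexes of complexes III and IV. Its fold change was -0.20 ± 0.10 at its brightest probeset (limma adjusted p = 0.550). That probeset read 3938.7, 4681.1 and 3902.1 in Tg mice and 5253.1, 4624.5 and 4476.1 in wt mice, with wt 2 and wt 3 below Tg 2. At 2 further probesets the groups were apart. One read 3447.4, 3877.7 and 3397.3 in Tg mice and 4421.2, 4554.6 and 4137.2 in wt mice, with a fold change of -0.29 (limma adjusted p = 0.299), but it carries the ending _x_at. The other gave -0.20 (limma adjusted p = 0.507).

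The isoforms of complex IV that are typical of muscle, lung or testis were dim and variable. Over Cox4i2, Cox6a2, Cox6b2, Cox7a1, Cox8b and Cox8c the median fold change was -0.384, against -0.085 over the other 10 kept genes of the complex. Without Tg 3 the medians were -0.146 and -0.11. Cox6a2, the heart and skeletal muscle isoform of subunit 6a, which in brain is known from parvalbumin interneurons, read 196.6, 274.2 and 172.3 in Tg mice and 266.9, 305.4 and 373.4 in wt mice. The groups overlapped through Tg 2 alone, and the fold change was -0.54 ± 0.23 (limma adjusted p = 0.478). Beside it, the 4 genes listed as parvalbumin interneuron markers, Pvalb, Kcnc1, Gad1 and Syt2, were all below 0. Their summed signals were 11399.9 to 13174.9 in Tg and 11628.7 to 15822.9 in wt mice. Most of each sum came from Gad1, at 8651.7 to 9893.4 in Tg and 8268.9 to 12117.1 in wt mice. The part of parvalbumin interneurons in the Cox6a2 difference was not tested. Of the 5 muscle markers, Myh6 and Myl2 were not kept, and the summed signal of all 5 was 634.6 to 811.3 in Tg and 739.9 to 867.5 in wt mice.

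Cox8b, another heart and muscle isoform, and Cox6b2, a testis isoform, varied most within the Tg group. Cox8b read 164.6, 468.2 and 5.3 in Tg mice and 252.1, 281.1 and 169.8 in wt mice. The wt values lay inside the range of the Tg values, and the fold change of -0.997 ± 0.812 (limma adjusted p = 0.725) became 0.268 without Tg 3. Cox6b2 read 229.2, 438.3 and 107.4 in Tg mice and 307, 291.4 and 334.4 in wt mice, with a fold change of -0.45 ± 0.36 (limma adjusted p = 0.725) and 0.032 without Tg 3. Both genes thus ordered the Tg mice from Tg 2 down to Tg 3.

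The choroid plexus markers ordered the Tg mice in the same way, a likeness noticed after the values were seen. Kcnj13, a potassium channel of that tissue, read 344, 2364 and 223.3 in Tg mice and 908.9, 999.5 and 960.8 in wt mice. Kl, which encodes klotho, read 623.1, 2299.4 and 311.1 in Tg mice and 758, 993.5 and 969 in wt mice. Ttr, the transthyretin gene, read 40079.7, 57637.7 and 3915.2 in Tg mice and 50822.4, 48740.4 and 44775.6 in wt mice. The same order, Tg 2 above Tg 1 above Tg 3, held for 22 of the 42 kept members (52.4%), namely 5 of complex III, 9 of complex IV and 8 of ATP synthase, against 18.8% of all kept genes and 17.8% of the 1351 other genes of the brightest decile. Atp5md, Atp5d, Cox6b1, Cox7a2 and Cox6a2 were among the 22. The part of choroid plexus tissue in the levels of the members was not tested.

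**Figure D5:**
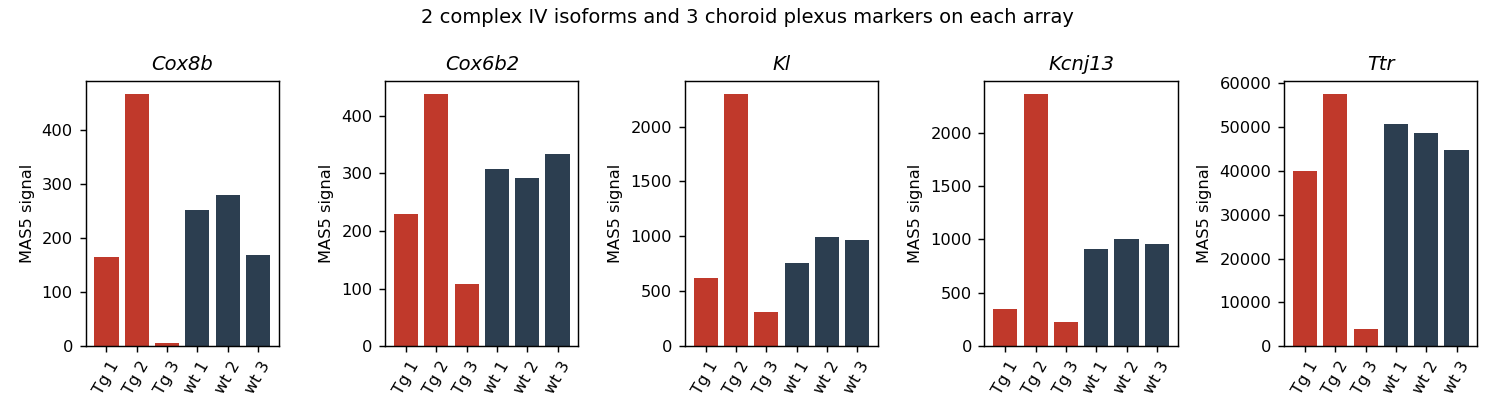
Bars give the MAS5 signal on each of the 6 arrays for Cox8b and Cox6b2, 2 isoform genes of complex IV, and for the choroid plexus markers Kl, Kcnj13 and Ttr. In all 5 genes Tg 2 is the highest and Tg 3 the lowest of the Tg arrays, and Tg 3 is the lowest of all 6 arrays.

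Cox4i2, the lung isoform of subunit 4, was among the dimmest decile of genes and read 48.2, 18.7 and 111.3 in Tg mice and 105.5, 56.6 and 46.8 in wt mice, mixed between the groups (fold change -0.32, limma adjusted p = 0.879). Pericytes, a known site of Cox4i2 in brain vessels, had summed marker signals of 3497 to 4809.5 in Tg and 3709.5 to 4902.8 in wt mice. Cox7a1, the muscle isoform of subunit 7a, read 111.5, 83.2 and 148.6 in Tg mice and 126.7, 145.1 and 105.3 in wt mice, mixed between the groups (fold change -0.14, limma adjusted p = 0.909). Cox8c, a testis isoform, read 323.1, 403 and 286.8 in Tg mice and 402.6, 278.8 and 294.7 in wt mice, also mixed (fold change 0.06, limma adjusted p = 0.947). Cox7c, a subunit of all tissues, had a fold change of 0.03 at its brightest probeset, whose mean signal was 262.2.

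In ATP synthase, 13 of 17 genes were below 0, with a median of -0.077. At an unadjusted p under 0.05, 3 were lower (17.6%). That share was 4.97% of all kept genes and 11.8% of the 1351 other genes of the brightest decile. Atp5d and Atp5e encode the delta and epsilon subunits at the foot of the central stalk, and Atp5md encodes a small membrane subunit linked to the dimer of the enzyme. After quantile normalization 10 of the 17 (58.8%) were below 0, with a median of -0.016, against 59.3% and -0.049 for all kept genes. The median was -0.045 without Tg 3, -0.052 without wt 2 and -0.121 without Tg 2.

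Atp5d had the smallest p value of the 42 members. Its signal was 9423.6, 9720.1 and 8726 in Tg mice and 12008.8, 11970.4 and 11553.7 in wt mice. The highest Tg mouse was well below the lowest wt mouse, with means of 9289.9 ± 510 and 11844.3 ± 252 (SD, n = 3 arrays), a difference of -21.6% (Tg minus wt), and a fold change of -0.35 ± 0.07 (limma adjusted p = 0.206). Over the alternatives tried, its fold change ranged from -0.417 to -0.266 and its adjusted p from 0.0816 to 0.724. A further probeset read 4004.9, 3913.2 and 3821.3 in Tg mice and 4803.2, 4547.3 and 3996.2 in wt mice. There wt 3 lay just below Tg 1, and the fold change was -0.18 (limma adjusted p = 0.546). Both probesets have the ending _s_at, which marks probes shared by several transcripts. The gene lies at chr10:80138698-80145828 in GRCm38.p6.

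Atp5md read 11615, 13350.9 and 7115.6 in Tg mice and 13643.4, 15440.8 and 14840.3 in wt mice. The groups were apart, narrowly between Tg 2 and wt 1, and Tg 3 stood far below the rest, with means of 10693.8 ± 3218 and 14641.5 ± 915 (SD, n = 3 arrays). The fold change was -0.50 ± 0.18 (limma adjusted p = 0.383) and ranged from -0.685 to -0.231 over the alternatives. Atp5e read 4355.5, 4206.3 and 3721.7 in Tg mice and 5186.7, 5148.9 and 4248.7 in wt mice. There wt 3 lay below Tg 1, and the fold change was -0.24 ± 0.10 (limma adjusted p = 0.465).

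For the genes of the catalytic sites the values at the brightest probesets were closer to 0. Atp5b, the beta subunit that holds the catalytic sites and the brightest ATP synthase gene, read 21492.1, 20696.4 and 20661.1 in Tg mice and 22192.6, 21343.2 and 20031.8 in wt mice. The groups were mixed, with a fold change of -0.02 ± 0.07 (limma adjusted p = 0.958). Atp5a1, the alpha subunit beside it, had a fold change of 0.05, but further probesets gave -0.09 (mean signal 11090.5) and -0.29 (mean signal 293.1). Atp5c1, the gamma subunit that forms the shaft of the central stalk, had -0.16 (limma adjusted p = 0.539).

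Atp5g1, Atp5g2 and Atp5g3 encode the same mature c subunit of the proton ring with different import sequences. Atp5g3 read 17187.4, 18447.6 and 17188.1 in Tg mice and 18530.8, 20214.8 and 19252.3 in wt mice. The groups were apart, narrowly between Tg 2 and wt 1, with a fold change of -0.13 ± 0.07 (limma adjusted p = 0.568). Atp5g2 read 5167.7, 5912 and 4956.3 in Tg mice and 6437.8, 5829.3 and 5342.4 in wt mice. Its groups overlapped, and the fold change of -0.13 ± 0.10 (limma adjusted p = 0.681) was -0.082 without Tg 3, -0.066 without wt 1 and -0.209 without Tg 2. Atp5g1 read 4568, 5072.1 and 4086.9 in Tg mice and 5024.9, 3987.9 and 4377.5 in wt mice, mixed between the groups, with a fold change of 0.04 ± 0.11 (limma adjusted p = 0.934). Whether the 3 genes differ from each other was not tested.

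Among the subunits of the peripheral stalk, which holds the head still, the fold change was -0.10 for Atp5o, -0.08 for Atp5pb, -0.06 for Atp5j and 0.02 for Atp5h. The Atp5h signal was 16209, 13236.1 and 13173.5 in Tg mice and 13090, 14715.6 and 14106.6 in wt mice, with Tg 1 alone above all wt mice, and a further probeset of the gene gave -0.19. Among the small membrane subunits the fold change was -0.19 for Atp5j2 (limma adjusted p = 0.532), -0.06 for Atp5k, -0.03 for Atp5l and 0.14 for Atp5mpl (limma adjusted p = 0.640), the highest of the members. At Atp5k a probeset with the ending _x_at read 5754.7, 5811.4 and 5909 in Tg mice and 6987.4, 7538 and 6676.4 in wt mice, groups that were apart (fold change -0.28, limma adjusted p = 0.261).

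The choice of probeset mattered for single genes and for the medians of the complexes. Of 77 kept member probesets, 66 were below 0, and 16 of the 25 genes with 2 or more kept probesets had all of them below 0, while 0 had all of them above 0. When all kept probesets of a gene were averaged, 8 members were lower at an unadjusted p under 0.05, and 5 of the 7 were among them. The medians were then -0.07 for complex III, -0.136 for complex IV and -0.112 for ATP synthase. At the brightest probesets they were -0.126, -0.153 and -0.077. Without probesets of the endings _x_at and _s_at, a choice made after the data were seen, 5 of the 7 were lower and Atp5d and Atp5e were not, since all probesets of both genes have the ending _s_at.

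Lists for the neighbouring steps of the chain are given for comparison. The list for complex I was chosen by symbol alone, so not every gene in it need encode a subunit of that complex. It holds all 44 genes with symbols that begin with Nduf, assembly factors among them. Of these, 36 were below 0, with a median of -0.075. At an unadjusted p under 0.05, 4 were lower (9.09%), namely Ndufs7 (-0.28), Ndufb6 (-0.23), Ndufb7 (-0.20) and Ndufv2 (-0.19). That share was 4.97% of all kept genes and 11.8% of the 1351 genes of the brightest decile that are not members. The 1 higher gene (2.27%, against 2.9%) was Ndufa4l2 (1.03), which was dim, at 143.7 to 169.6 in Tg and 43 to 136.7 in wt mice. Of 4 complex II genes, 2 were below 0, with a median of 0.001, and 1 (25.0%), Sdhb, which encodes the iron-sulfur subunit, was lower (-0.17). Of 27 kept assembly factors and electron carriers, 17 were below 0, with a median of -0.048, and 4 (14.8%) were lower. These were Cycs (-0.16), the cytochrome c that links complexes III and IV, Sco1 (-1.03) and Coa6 (-0.28), which bring copper to complex IV, and Uqcc2 (-0.22), needed to assemble complex III. All Tg arrays lay below all wt arrays for 9 of the Nduf genes (20.5%), 1 of complex II (25.0%) and 5 of the assembly factors and carriers (18.5%). The same share was 19.0% of the members, 8.82% of all kept genes and 17.4% of the 1351 genes of the brightest decile that are not members. The difference between these lists and the members was not tested.

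Cycs read 12495.5, 11957.9 and 11726.5 in Tg mice and 13249.3, 13964.3 and 13323.4 in wt mice, with the groups apart. Sco1 was dim and read 54.4, 76.6 and 97.4 in Tg mice and 155, 239.4 and 129.5 in wt mice, also apart. None of these passed the adjusted test. Of 11 regulators of mitochondrial gene expression, 6 were below 0, with a median of -0.02, and 0 had an unadjusted p under 0.05 by limma. Among them Nrf1, whose protein acts on many genes of the respiratory chain, had a fold change of 0.43, Yy1 0.26, the coactivator gene Ppargc1a 0.13 and Tfam, which acts on mitochondrial DNA, 0.02. Gabpa, which encodes the DNA-binding subunit of an ETS factor of the respiratory genes, had a fold change of -0.31 (limma adjusted p = 0.516). It read 582.9, 574.9 and 472.1 in Tg mice and 717.8, 652.8 and 649.1 in wt mice, and it was the only regulator whose groups were apart. Such a separation, in the lower direction, was found for 9.09% of the 11 regulators and for 8.82% of all kept genes. Gabpb1, the partner of Gabpa, had -0.02, Tfb1m -0.23, Tfb2m 0.16, Ppargc1b -0.19, Esrra -0.07 and Polrmt -0.07.

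The nuclear genes of these complexes lie on 17 chromosomes and are known to share short promoter motifs. RefSeq promoter windows (GRCm38.p6, 250 bases before to 50 after the start of a transcript) were at hand for 32 of the 43 members and 27025 genes in all, and both strands were searched. The NRF-1 core GCGCATGC was in 6 of the 32 members (18.8%) and in 3.05% of all genes, the ETS core CCGGAAG in 11 (34.4%) and 9.93%, the YY1 core AAGATGGC in 3 (9.38%) and 3.19%, and the GC box GGGCGG in 12 (37.5%) and 38.2%. Such a match describes letters and is no evidence of binding. The ETS core was in the windows of Atp5e, Atp5md and Cox6b1. It was also in those of Uqcr11, Cox6a1 and Atp5h, whose fold changes at the brightest probesets were 0.00, 0.03 and 0.02. A further Atp5h probeset (mean signal 13406.2, against 14088.5 at the brightest) gave -0.19. The stretches below lie before the start and are read 5′ to 3′ on the minus strand that carries each gene. In capitals they show the ETS core, forward or as its reverse complement, for Atp5e, Cox6b1, Uqcr11 and Atp5h. Of these, Atp5e and Cox6b1 had lower Tg values, Uqcr11 had a value near 0 and Atp5h differed between its probesets. The NRF-1 core then follows for Cox6a1 and Atp5g2.
Atp5e, chr2:174464185-174464214: tacggccacagCTTCCGGtagccgctcggc
Cox6b1, chr7:30626124-30626153: tcctctcgcagCTTCCGGccagtcggaatt
Uqcr11, chr10:80406869-80406898: ttctctcctccCCGGAAGtagatgtcaatg
Atp5h, chr11:115419939-115419968: caaggagagaaCTTCCGGcaactctcttcc
Cox6a1, chr5:115349102-115349131: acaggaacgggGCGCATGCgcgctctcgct
Atp5g2, chr15:102671071-102671100: tggctccggccGCGCATGCgcagagccttc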

How the data were processed

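Hippocampal RNA of 3 Tg and 3 wt mice was measured on 1 array each. The deposited intensities are MAS5 signals, which the authors computed per probeset and array and scaled to a common trimmed mean (497.7 to 498.1, with 2% trimmed at each end). The study's own tests used RMA values with SAM and Cyber-T, but the deposited table holds MAS5 signals, so limma 3.58.1 in R 4.3.3 was used on log2(signal + 16), with group means and moderated variances with an intensity trend. The added constant understates the differences of dim genes. SAM was not run, and scan batches were not analysed here.

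Of 45101 probesets, 64 were controls. A further 31%, those of lowest mean log2 level, were removed, and 31076 remained (mean signal 48.8 or more). Benjamini-Hochberg adjustment ran over these. The precision is limited by the small number of arrays. Gene symbols come from GEO's platform annotation, and gene positions and promoters from RefSeq. Members, comparison lists, markers and motifs were chosen with earlier results of these data known, so counts over them have no test.

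In each complex, the text gives in full the 3 brightest members, the 3 with the smallest p and the tissue isoforms. In the other lists it names genes at an unadjusted p under 0.05, and all 11 regulators. The fit was tested on simulated data. The alternatives were constants of 1 and 64, quantile normalization, centring, no filter, keeping the brightest 50%, limma fitted with no trend, Cyber-T (window 101, confidence 10), a replicate block, averaging the probesets of each gene and leaving out each array. Figures were drawn with matplotlib 3.10.9.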

Additional observations from a re-analysis of the deposited data

How the results depend on the processing

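No member was called under any of the 18 alternatives, and the lowest adjusted p of a named member was 0.0816 (Atp5d). The count of called probesets was 0, with 65 by Cyber-T, 1 with the replicate number as a block and 0 to 6 when each array was left out in turn (6 without Tg 2). The numbers of the replicates pair no arrays, since Tg and wt arrays of one number had correlations of -0.0159, 0.00779 and 0.0333. With the block, 8 members were lower at an unadjusted p under 0.05 in place of 7. That count was 4 after quantile normalization, 14 after centring, 2 for limma without the trend, 2 without wt 1 and wt 2, and 3 to 11 when each array was left out. The count of higher members was 0 and, with 1 array left out, 0 to 1 (Atp5mpl without wt 2).

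The median of complex III ranged from -0.179 to -0.057 and that of ATP synthase from -0.121 to -0.045 with 1 array left out, and that of complex IV from -0.211 to -0.11. Without wt 1 and wt 2, which leaves 1 wt array that is assumed to vary as the Tg arrays do, the medians were -0.016 for complex III, 0.003 for complex IV and -0.031 for ATP synthase. The cause was not tested.

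Of 482 fold changes of 27 named members under the alternatives, 33 changed sign and 449 kept it, and 15 of the 27 genes had no change of sign, among them Atp5d, Atp5md, Atp5e, Cox5a, Cox6b1, Cox7a2, Cox6a2 and Uqcrfs1. The sign changed after quantile normalization for Cox5b (0.030), Atp5b (0.059) and Cox8c (-0.011). It changed after centring for Cox6a1 (-0.033), Atp5h (-0.047), Cox8c (-0.011) and Atp5g1 (-0.030). It changed with the mean of all probesets for Cox6a1 (-0.003), Atp5h (-0.084), Cox8c (-0.175) and Atp5g1 (-0.045). It changed without wt 1 and wt 2 for Cox5b (0.147), Atp5b (0.064), Cox4i2 (0.065), Cox7a1 (0.074) and Cox8a (0.051). With 1 array left out, the fold change ranged from -0.055 to 0.019 for Atp5b, -0.041 to 0.125 for Atp5g1, -0.080 to 0.070 for Atp5h, -0.799 to 0.138 for Cox4i2, -0.131 to 0.010 for Cox5b, -0.016 to 0.073 for Cox6a1, -0.908 to 0.032 for Cox6b2, -0.324 to 0.042 for Cox7a1, -0.147 to 0.024 for Cox8a, -1.985 to 0.268 for Cox8b, -0.074 to 0.211 for Cox8c and -0.221 to 0.014 for Cyc1. The causes of these changes were not tested.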
